A study of Mus musculus and Homo sapiens with 41 samples.

Results

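The monoubiquitin mark of histone H2A (H2AK119ub) was mapped in wild-type (WT) mouse embryonic stem (mES) cells by CUT&Tag, an assay in which an antibody directs a transposase to cut DNA around the marked chromatin. Bases on the 19 autosomes, X and Y that lay under a deposited peak in at least 2 of the 3 libraries of untransfected WT mES cells were merged into 31052 regions. The 3527 regions described here were shorter than 1500 bp, had a midpoint over 100 kb from every protein-coding transcription start site (TSS) and lay outside protein-coding gene bodies (mm10, GENCODE vM21). They are called far regions. Their closest counterpart was the set of 27467 other regions shorter than 1500 bp, called near regions, and the remaining 58 regions were longer and were left out. The peaks of the untransfected WT libraries chose the far regions, so their cover in that group is a description and enters no test.

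At the length limit, the longest far regions were chr8:55363054-55364508 with 1455 bp and chr3:58251995-58253397 with 1403 bp, and the shortest regions that the limit left out had 1511 and 1514 bp. At the distance limit, the closest far regions lay 100004 bp from the TSS of Tacr1 and 100007 bp from that of Thrb, and the closest regions left out lay 99889 bp from Wls and 99877 bp from Dhx35.

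The mouse part of the series held 27 H2AK119ub libraries in 9 groups of 3, and 2 libraries of BAP1 in untransfected WT mES cells. The mES cell groups were untransfected WT and Tet2 KO cells, WT cells with a control siRNA (siNC), and Tet2 KO cells with siNC, with siRNA against Mbd6 (siMbd6) or with siRNA against Nsun2 (siNsun2), all grown with serum, LIF, CHIR99021 and PD0325901. The HSPC groups were Lin-c-Kit+ bone marrow cells of mice aged 6 to 8 weeks, cultured and electroporated: WT with a control shRNA (shNC), Tet2 KO with shNC, and Tet2 KO with shRNA against Mbd6 (shMbd6). The WT and Tet2 KO mES cells are 1 line each and the KO is constitutive, so other differences between the lines and the loss of Tet2 cannot be told apart. Far regions were chosen in the WT line, so places with peaks only in the Tet2 KO line could not become far regions. Comparisons of Tet2 KO with WT mES cells on far regions therefore lean toward loss, also in libraries that the choice did not use. The study calls its replicates biological, but the labels do not say whether the libraries of a group came from separate cultures or animals, so p-values measure only the spread between libraries, which may in part be technical. A further 12 libraries of human K562 cells were not used here.

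H2AK119ub is placed by the RING1 ligases of Polycomb repressive complex 1 (PRC1) and removed by BAP1, the catalytic subunit of the Polycomb repressive deubiquitinase, which the methyl-CpG-binding-domain proteins MBD5 and MBD6 join. The mark is known for dense domains over CpG-rich promoters of repressed developmental genes, with a low level spread through the rest of the genome. TET2 oxidizes 5-methylcytosine, NSUN2 is an RNA cytosine methyltransferase, and the study asked whether TET2, NSUN2 and MBD6 act on chromatin through methylated RNA of repeats. LINE-1 elements are retrotransposons whose mouse copies carry a promoter made of tandem monomers at their 5′ end and encode their reverse transcriptase downstream of it.

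The far regions were GC-rich, and the sequence they most often shared was that of LINE-1 promoters. LINE-1 copies were located by exact matches of the study's own LINE-1 primer pair, which gave 10944 amplicons in mm10 with a median length of 268 bp. Within 5 kb upstream of such an amplicon lay the midpoints of 1309 far regions, against 26 within 5 kb downstream. The 4 runs of 30 bases printed here show what these LINE-1-linked regions hold, with CpG dinucleotides in capitals and each run written in the orientation of the amplicon. Word A was the run found in the most LINE-1-linked far regions, word B the most common among regions without A, and word C the most common among regions with neither. Word D was the run found in the most LINE-1-linked far regions whose cover was called higher in Tet2 KO than in WT cells with siNC, so its change in that comparison is not independent of its choice.
word A: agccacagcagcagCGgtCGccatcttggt
word B: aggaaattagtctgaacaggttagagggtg
word C: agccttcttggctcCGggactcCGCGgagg
word D: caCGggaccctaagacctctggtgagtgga

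Word A stood in 712 of the 1309 LINE-1-linked regions (54.4%), word B in 218, word C in 139 and word D in 98. The words occurred in tandem: where a region held the same word more than once, the most common spacing was 212 bases for A, 214 for B, 206 for C and 208 for D. In the whole of mm10, word A occurred 5796 times, B 1958 times, C 1394 times and D 5017 times. Words A and D had similar copy numbers in the genome. A stood in 21.04% of the far regions and D in 3.01%. A was chosen as the most common run, so D could not exceed it among LINE-1-linked regions, and the direction of this difference is no result. The 9 letters GCCATCTTG, which are the core of the published motif of the zinc-finger protein YY1 and are part of word A, were found on either strand in 70.4% of LINE-1-linked regions, 0.42% of single-copy far regions, 4.82% of near regions and 1.24% of 32851 RefSeq promoter windows reaching 250 bases before and 50 after a gene's start. The match describes the letters and not binding.

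A much smaller group was made of telomere-type repeats away from annotated genes. The unit TTAGGG stood at least 3 times in a row in 15 far regions and in 33 near regions.

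Single-copy far regions included CpG-dense ones. The region with the most CpG dinucleotides, 14.5 per 100 bases, was chr16:13437214-13437379, which lies 180.8 kb from the TSS of Mrtfb and overlaps the antisense RNA gene Gm15738. This 166 bp region had a peak in 6 of the 27 H2AK119ub libraries. It is printed on the forward strand with CpG in capitals, followed by the first 300 bases of chr17:85799928-85801180, a 1253 bp region over the lincRNA gene Gm29418 whose values are given among the HSPC results. Its nearest protein-coding TSS is that of Six2, a homeobox factor of kidney progenitors, 112.3 kb away.
region near Mrtfb: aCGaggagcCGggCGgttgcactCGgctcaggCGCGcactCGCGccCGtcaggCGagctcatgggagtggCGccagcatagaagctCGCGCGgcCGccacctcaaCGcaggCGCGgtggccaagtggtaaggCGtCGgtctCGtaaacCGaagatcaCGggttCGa
region near Six2: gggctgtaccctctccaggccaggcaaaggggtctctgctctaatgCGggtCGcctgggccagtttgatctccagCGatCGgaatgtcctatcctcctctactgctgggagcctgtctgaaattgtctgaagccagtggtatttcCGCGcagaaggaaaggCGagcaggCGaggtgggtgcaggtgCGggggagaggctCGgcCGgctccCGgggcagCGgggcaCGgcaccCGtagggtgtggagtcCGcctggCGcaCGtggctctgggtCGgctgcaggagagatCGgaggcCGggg

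For description, the far regions were divided by sequence after their values had been seen, so the classes carry no test. LINE-1-linked regions numbered 1309 (37.1%). Another 546 (15.5%) had a median 31-mer copy number above 1 in mm10 and are called other repeated regions, 1666 (47.2%) were single-copy, and 6 were shorter than 31 bases and fell in no class. Near regions had another makeup, with 5.24% LINE-1-linked, 6.74% other repeated and 87.9% single-copy. LINE-1-linked far regions had a median length of 469 bp, 64.5% GC, 5.98 CpG per 100 bases and 1849.5 copies of their median 31-mer. Single-copy far regions had a median length of 302.5 bp, 52.9% GC and 1.59 CpG per 100 bases. Over all far regions the median length was 357 bp, in a range of 6 to 1455 bp, and together they held 1465.55 kb.

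The soft-masked share, which marks interspersed and simple repeats in the assembly, had a median of 60.5% of bases in far regions and 5.01% in near regions, against 36.4% of the genome. Grouped by BLASTN at 80% identity over 50% of the shorter sequence, 1872 far regions fell into 50 families and 1655 stood alone. One family held 1505 regions, of which 1301 were LINE-1-linked, and the next largest held 63, 39 and 30. Far regions that are copies of 1 element share sequence and are not independent of each other. Bowtie2, as the authors ran it, placed a read with many equally good sites at 1 of them, so the copies of a repeat cannot be told apart by these peaks.

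The position within LINE-1 was narrow. The midpoint of a LINE-1-linked far region lay a median of 3169 bp upstream of the amplicon (quartiles 3081 and 3306 bp), and 1285 of the 1309 (98.2%) lay between 2500 and 4000 bp. Of the 5559 LINE-1 amplicons far from genes, 17.0%, 24.6% and 27.1% had a peak within 5 kb upstream in the untransfected WT libraries 1, 2 and 3. The same share was 29.5%, 38.2% and 39.7% in the untransfected Tet2 KO libraries, each above all 3 WT libraries. It was 15.7%, 25.3% and 25.6% in WT cells with siNC, and 5.88%, 16.1% and 15.3% in Tet2 KO cells with siNC. In the 9 HSPC libraries it ran from 0.144% to 0.468%. Of the primer pairs for IAP, MERVL and MusD retroviral elements, matched exactly in the same way, none had more than 3 far regions within 5 kb upstream of its amplicons, and other retroviral families were not searched for.

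**Figure D1:**
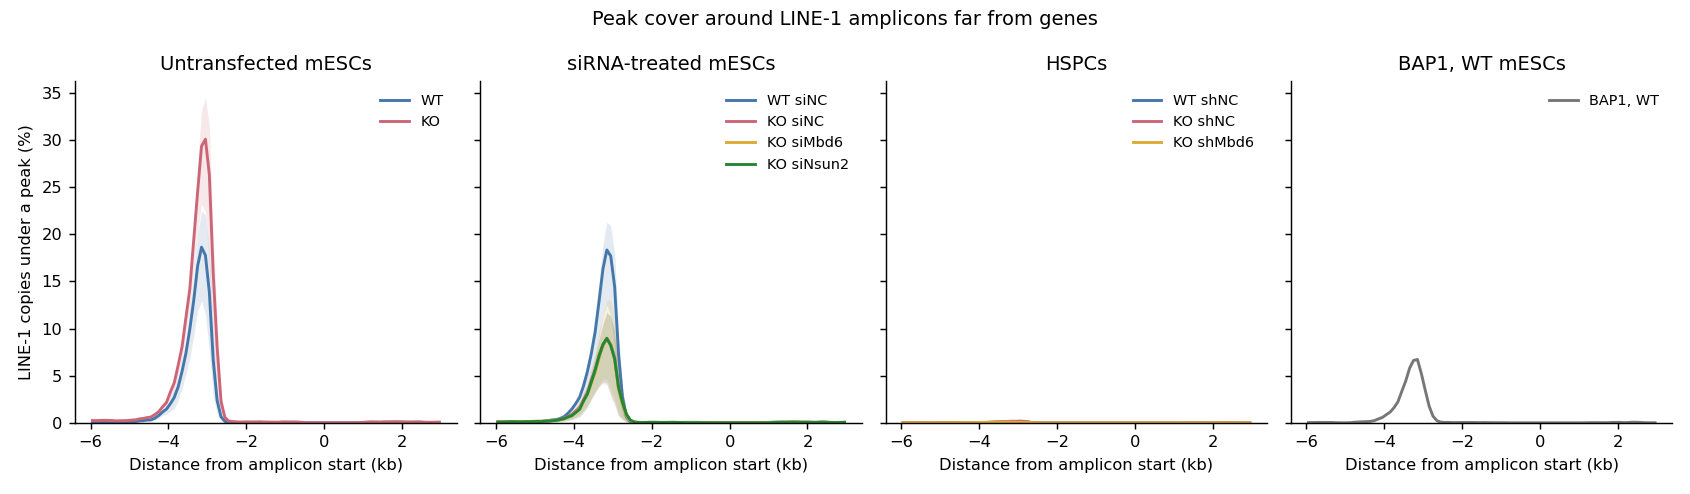
Share of the LINE-1 copies far from protein-coding genes (y axis, percent) that lay under a peak, by distance from the start of the LINE-1 amplicon (x axis, kb, negative values upstream), as the mean of each group (line) and the range of its libraries (shading). In the 100 bp bin that starts 3200 bp upstream, 23.2% to 33.1% of copies lay under a peak in the untransfected Tet2 KO libraries, 12.9% to 22.5% in WT, and at most 0.208% in any HSPC library.

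Peak files hold no read counts, so the sequencing depth behind each library is unknown, and no interval for counting error can be given. The total length under peaks stood in its place. It ran from 9.66 to 17.0 Mb in the 9 libraries of untransfected cells and of WT cells with siNC, from 1.82 to 5.64 Mb in the 9 libraries of Tet2 KO cells with siRNA, from 0.648 to 3.95 Mb in HSPCs, and was 0.878 and 0.988 Mb for BAP1. Replicate 1 of every mES cell H2AK119ub group had the least cover of its group, and the change in far-region cover and the count of called regions for Tet2 KO with siNC are also given without it. Libraries of 1 group shared from 26.6% to 52.6% of their covered bases, so none was a duplicate of another. Around the TSS of Tet2, 5 kb to each side, between 0% and 3.63% of bases were covered in any library. A repressive mark does not measure expression, so neither the knockouts and knockdowns nor the labelled cell types could be checked from these files.

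Far regions carried 8.98% ± 0.489 (SD, n = 3) of all bases under H2AK119ub peaks in untransfected WT mES cells. Their cover, the percent of far-region bases under a peak, was 62.6%, 93.4% and 94.2% in the 3 WT libraries that chose them. It was 56.5%, 76.4% and 76.9% in untransfected Tet2 KO cells. In WT cells with siNC, a group of the same line that the choice did not use, it was 54.2%, 81.6% and 80.1%. Most far-region bases were thus under a peak in WT mES cell libraries that had not chosen them, with replicate 1 the lowest.

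In Tet2 KO cells with siNC, far regions had lost most of their peaks: cover was 9.63%, 22.5% and 21.9%. All 3 values lay below all 3 of WT cells with siNC. The group mean fell by 54.0 percentage points, from 71.98% to 18.01%, with p = 0.1 in a two-sided exact permutation test, the smallest p that 3 against 3 libraries can give. The WT line chose the far regions, so the comparison leans toward this fall. The fall was 58.7 points without every replicate 1. On the log2 scale total covered length fell by 2.12 and far-region cover fell by 2.08, so that after scaling all libraries to the same total covered length the difference was 0.90 points in favour of Tet2 KO. These are bulk libraries, in which a smaller share of cells with the mark and less mark per cell cannot be told apart.

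Classes of far regions differed in how much cover they kept. LINE-1-linked regions had 53.1%, 86.3% and 84.9% cover in WT cells with siNC and 7.21%, 25.7% and 24.9% in Tet2 KO cells with siNC. Single-copy regions had 54.2%, 76.2% and 74.0% in WT and 5.15%, 10.7% and 9.73% in Tet2 KO cells. Other repeated regions kept the most, 28.1%, 42.0% and 42.5% in Tet2 KO cells. On the log2 scale the mean change was -2.13 for LINE-1-linked, -3.05 for single-copy and -0.97 for other repeated regions, beside -2.12 for the total covered length. The same order held for near regions, at -2.13, -2.67 and -0.93.

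**Figure D2:**
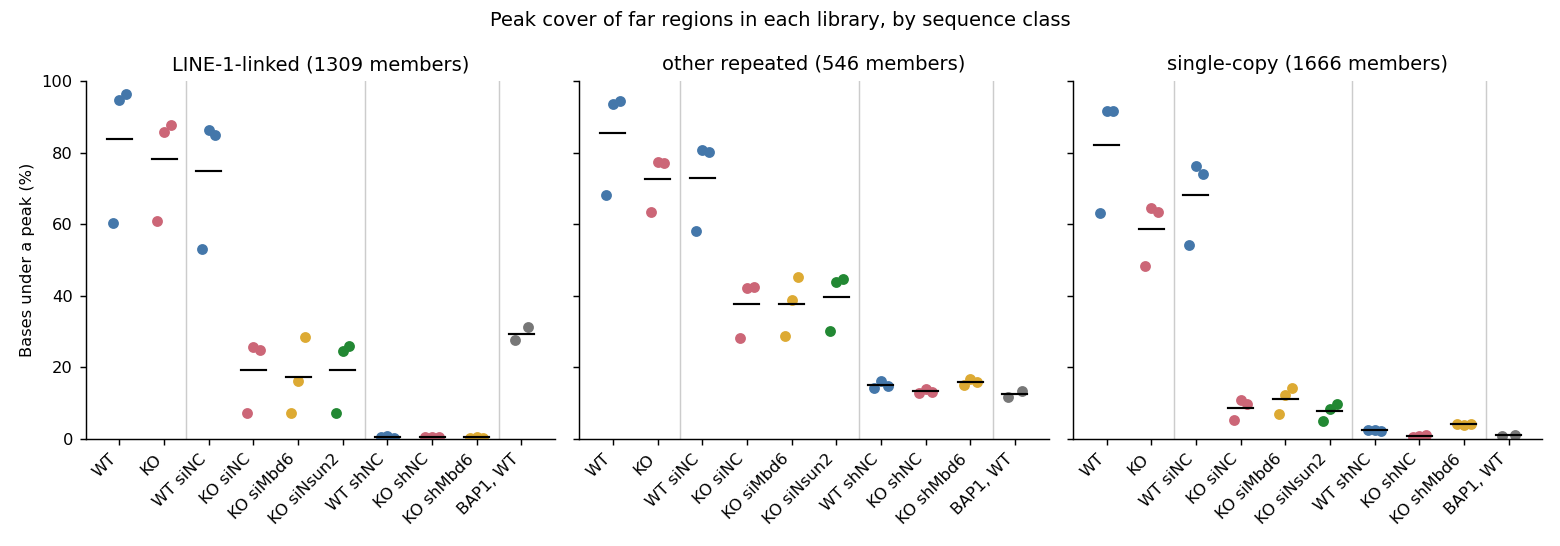
Percent of bases under a peak (y axis) in far regions that were LINE-1-linked (1309), other repeated (546) or single-copy (1666), for each library (points) with the group mean (bar), in untransfected mES cells, siRNA-treated mES cells, HSPCs and the BAP1 libraries of WT mES cells. Cover of LINE-1-linked regions was 60.3% to 96.3% in untransfected WT cells and 27.6% and 31.2% for BAP1, and stayed under 1% in HSPCs.

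The change of far regions was set against that of near regions as the log2 ratio of their covers. Far cover over near cover was higher in Tet2 KO than in WT cells with siNC by 0.33 on the log2 scale (p = 0.1, exact permutation test). With only single-copy far regions over all near regions the difference was -0.64, so its direction turned with the class of far regions. Single-copy far regions changed by -3.05 and single-copy near regions by -2.67 on the log2 scale.

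Region by region, limma was fitted to the covered length of all regions with a peak in at least 3 of the 12 siRNA-treated libraries, which 2343 of the 3527 far regions passed. A region with peaks only in the 3 WT libraries passes that filter through the group where it is high, so the counts describe and do not support the fall. With Benjamini-Hochberg adjustment at 0.05 over 21171 regions tested, 1508 far regions were lower in Tet2 KO than in WT cells with siNC, beside 71.4% of all regions tested, and 59 were higher, beside 0.827%. After scaling to equal total covered length the split was 897 lower and 153 higher. Without every replicate 1 it was 381 and 34, without WT siNC replicate 2 it was 477 and 52, and without WT siNC replicate 3 it was 476 and 51. The filter stayed at 3 libraries, so regions with peaks only in WT cells dropped out of these fits. They tested 1456, 1379 and 1383 far regions. The shares of all regions called under scaling and in these fits are not given here, so their counts do not compare far regions with the rest. Of the 1508 lower regions, 610 were LINE-1-linked, 164 other repeated and 734 single-copy. These were 61.1%, 40.3% and 78.7% of the far regions tested in each class, beside the 71.4% of all regions tested. Of the 59 higher regions, 43 were LINE-1-linked, 14 other repeated and 2 single-copy, or 4.31%, 3.44% and 0.214% of those tested. Near regions had similar shares higher, at 4.26%, 3.28% and 0.129%.

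The 3 far regions with the largest fall whose libraries did not overlap were all LINE-1-linked and were found at nearby positions within LINE-1, 3457 to 3680 bp upstream of the amplicon. At chr1:28287731-28288833, a 1103 bp region 492.0 kb from the TSS of Gm597, 884, 1064 and 1074 bases were covered in WT cells with siNC and 0 in each library of Tet2 KO cells with siNC, siMbd6 or siNsun2. Untransfected Tet2 KO libraries covered 679, 926 and 1103 bases of it. Among siRNA-treated libraries only those of WT cells had a peak on it, and through them alone it entered the test, so no p is given.

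A different set of LINE-1 copies went the other way. At chr10:56707266-56707826, a 561 bp region 330.2 kb from the TSS of the connexin gene Gja1, WT cells with siNC had 0, 0 and 4 bases covered, and all 561 bases were covered in every library of Tet2 KO cells, untransfected, with siNC, with siMbd6 and with siNsun2. The limma difference with siNC was 559.7 bases. Among siRNA-treated libraries, apart from those 4 bases, only Tet2 KO libraries had a peak on the region. It passed the filter through the cells where it is high, so no p is given. At chr3:70688005-70688507, 680.6 kb from the TSS of Otol1, WT cells with siNC had 0 bases covered in each library and Tet2 KO cells with siNC had all 503 bases covered in each. The 43 LINE-1-linked regions called higher had 8.54%, 36.1% and 25.5% cover in WT cells with siNC, 91.5%, 99.5% and 99.3% in Tet2 KO cells with siNC, and 99.9% to 100% in untransfected Tet2 KO cells. They were only partly covered in the WT libraries that chose them, at 37.5%, 83.2% and 93.3%.

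Of the 712 regions with word A, tested or not, 408 were called lower and 0 higher, and of the 218 with word B, 103 were called lower and 0 higher. Over all LINE-1-linked far regions, tested or not, 610 (46.6%) were called lower and 43 (3.29%) higher. Most regions tested were lower, so these counts do not make the loss particular to word A or B. Of the 98 regions with word D, 1 was called lower and 41 higher, among the 43 LINE-1-linked regions called higher in all. Because word D was taken from the called regions, it was also followed at every place in mm10 where it occurs over 100 kb from a protein-coding TSS and outside gene bodies, whether or not a WT peak lay there: 975 such places for A, 633 for B, 257 for C and 1020 for D.

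At the places with word D, a peak was present at 4.51%, 13.9% and 20.9% in untransfected WT cells and at 60.6%, 71.8% and 72.9% in untransfected Tet2 KO cells. With siNC it was present at 3.14%, 16.6% and 17.5% in WT and at 28.1%, 53.8% and 52.2% in Tet2 KO cells. The Tet2 KO libraries lay above the WT libraries in each experiment. The siNC values restate the choice of word D, and the places include the regions it was taken from, while the untransfected WT libraries had chosen the far regions, so these values are a description. Total covered length rose by 0.15 in the first and fell by 2.12 in the second on the log2 scale, while the mean share of D places under a peak rose by 2.64 and 2.15. Under siMbd6 the share was 30.8%, 47.0% and 56.5%, and under siNsun2 29.2%, 52.0% and 53.3%.

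At the places with word A, the untransfected lines were alike in range, with 56.1%, 79.9% and 83.0% in WT and 56.2%, 80.3% and 83.1% in Tet2 KO cells. With siNC the share was 53.9%, 82.9% and 81.6% in WT and 0.821%, 18.6% and 17.0% in Tet2 KO cells, a mean change of -3.49 on the log2 scale. Words B and C lay between these patterns: B went from a mean of 42.4% to 9.27% and C from 57.2% to 21.01% between WT and Tet2 KO cells with siNC. In HSPCs a peak stood at no more than 2.16% of the places with any of the 4 words.

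**Figure D3:**
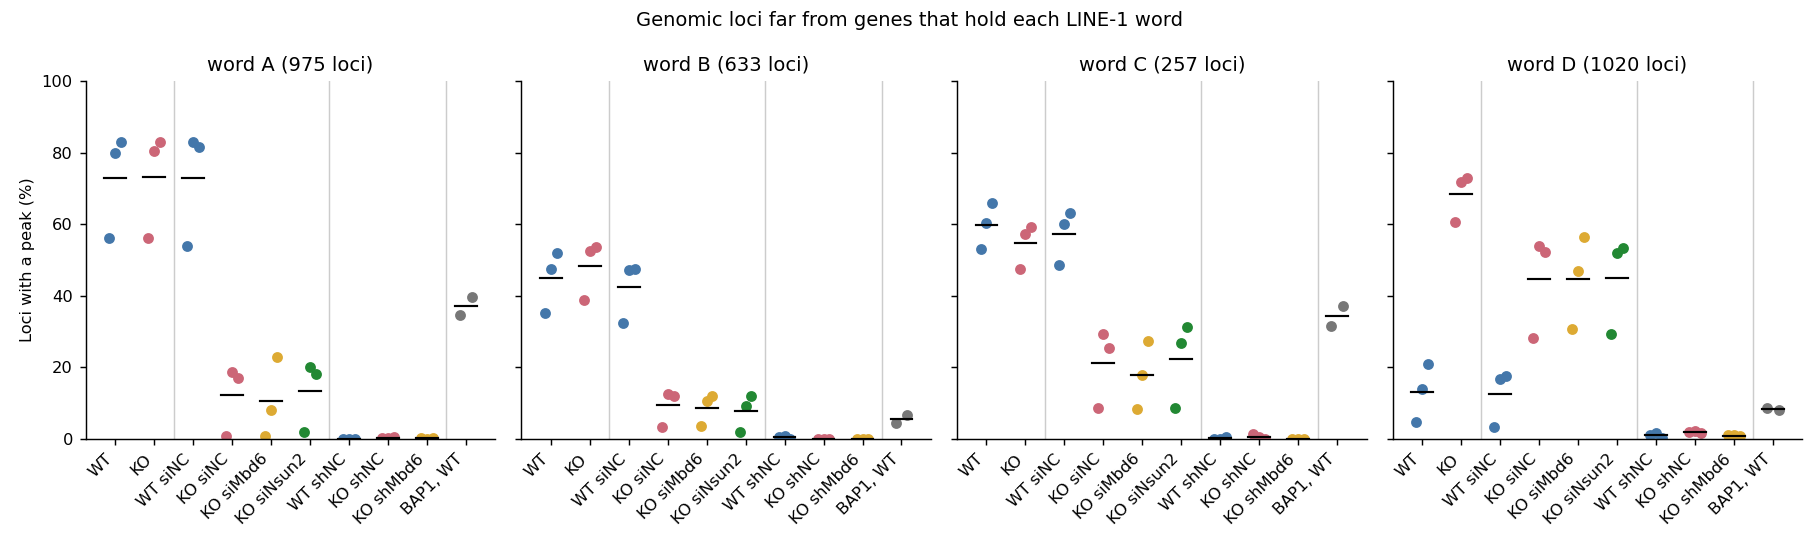
Percent of the genomic places far from genes holding word A, B, C or D that had a peak (y axis), for each library (points) with the group mean (bar). Word D, at 4.51% to 20.9% in untransfected WT and 60.6% to 72.9% in untransfected Tet2 KO cells, differs from word A, at 56.1% to 83.0% and 56.2% to 83.1%.

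Knockdown of Mbd6 or Nsun2 in Tet2 KO mES cells moved far-region cover by less than the spread between libraries. Cover was 10.4%, 18.1% and 25.6% with siMbd6 and 9.78%, 21.4% and 22.7% with siNsun2, overlapping the 9.63% to 22.5% of siNC. The mean differences were 0.031 points for siMbd6 and -0.051 points for siNsun2, each with p = 1 in the exact permutation test. After scaling to equal total covered length they were -5.00 points, with exact p = 0.1, and 0.82 points, with exact p = 0.4. In limma no far region was called in either comparison, lower or higher, beside 0.0189% lower and 0.189% higher of all regions tested for siMbd6, and 0.052% and 0.0142% for siNsun2. At an unadjusted p under 0.05 in limma, 16 of the 2343 far regions tested were lower and 43 higher with siMbd6. With siNsun2, 20 were lower and 25 higher. The counts of other regions at this limit are not given here, so these counts do not compare far regions with the rest. They are not adjusted for the number of regions tested, so no change is read from them.

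Far and near regions went apart under siMbd6. Near cover was 12.1%, 19.5% and 24.2% with siMbd6 and 8.82%, 17.5% and 17.6% with siNC, and the log2 ratio of far over near was lower with siMbd6 by 0.35, with the 3 libraries of one group all below those of the other (p = 0.1, exact permutation test). With only single-copy far regions over all near regions the difference was 0.03. Single-copy far regions changed by 0.39 and single-copy near regions by 0.46 on the log2 scale. Under siNsun2 the ratio differed by 0.12, with exact p = 0.4.

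The far regions with the strongest statistic in each direction for these knockdowns did not pass the adjustment. At chr12:20311847-20312252, an other repeated region 357.5 kb from the TSS of Gm21863, 0 bases were covered in each library with siNC and 228, 172 and 168 with siMbd6, with an adjusted p of 0.434 in limma. At chr17:81244455-81245772, a LINE-1-linked region 180.0 kb from the TSS of Thumpd2, 969, 1169 and 1006 bases were covered with siNC, 298, 313 and 560 with siMbd6, and 0, 600 and 323 with siNsun2. Its adjusted p in limma was 0.502 for siMbd6 and 0.584 for siNsun2. At chr8:62250157-62250680, a LINE-1-linked region 127.3 kb from Anxa10, 0 bases were covered in each library with siNC and 232, 290 and 462 with siNsun2, with an adjusted p of 0.0865 in limma. WT cells with siNC covered 510, 524 and 524 bases of that region.

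BAP1 peaks in WT mES cells fell on far regions more than on near ones. They covered 15.0% and 17.0% of far-region bases in the 2 libraries, and 2.70% and 3.05% of near-region bases. A BAP1 peak in both libraries stood on 358 far regions (10.2%) and 479 near regions (1.74%). By class, such a peak stood on 296 LINE-1-linked far regions (22.6%) and 24.0% of LINE-1-linked near regions, on 50 other repeated far regions (9.16%) and 5.57% of other repeated near regions, and on 12 single-copy far regions (0.72%) and 0.128% of single-copy near regions. Of the 2013 and 2233 BAP1 peaks, 53.7% and 55.4% were LINE-1-linked, and 25.9% and 26.96% lay over a far region. No library of a control antibody was analysed here, so enrichment of these repeats by the assay itself was not tested.

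Among LINE-1-linked far regions, those under BAP1 were longer and held more cover in mES cells of both genotypes. The 296 regions with BAP1 in both libraries had a median length of 731 bp and 8.78%, 38.5% and 37.0% cover in Tet2 KO cells with siNC. The 651 without BAP1 had a median length of 380 bp and 6.42%, 15.9% and 17.2% cover. In WT cells with siNC the cover was 65.8%, 91.9% and 91.1% with BAP1 in both libraries and 43.8%, 80.5% and 79.4% without. By word, BAP1 in both libraries was found at 46.8% of regions with C, 28.2% with A, 15.3% with D and 5.505% with B.

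**Figure D4:**
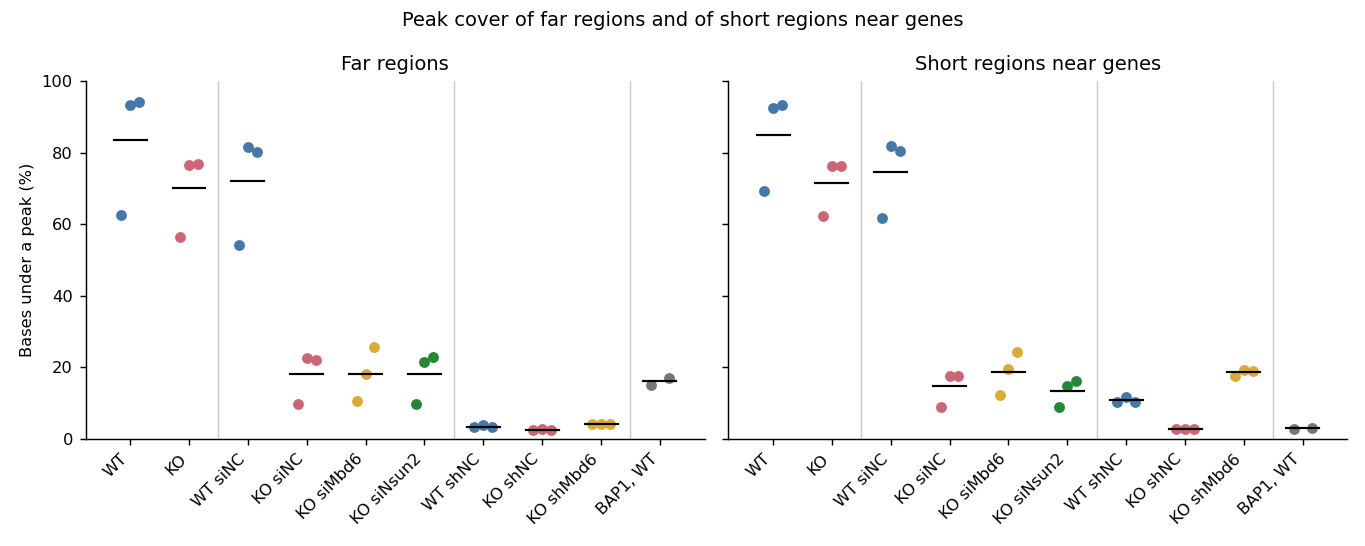
Percent of bases under a peak (y axis) in the 3527 far regions and the 27467 near regions, for each library (points) with the group mean (bar). BAP1 covered 15.0% and 17.0% of far and 2.70% and 3.05% of near bases, while WT HSPCs with shNC covered 3.14% to 3.66% of far and 10.3% to 11.7% of near bases.

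Most far regions had no peak in bone marrow progenitors. Cover was 3.29%, 3.66% and 3.14% in WT HSPCs with shNC, 2.44%, 2.62% and 2.49% in Tet2 KO HSPCs with shNC, and 3.99%, 4.16% and 4.15% in Tet2 KO HSPCs with shMbd6, and the 3 groups did not overlap. A peak in any of the 9 HSPC libraries stood on 287 far regions (8.14%), which was 4.13% of LINE-1-linked, 6.36% of single-copy and 23.1% of other repeated regions. LINE-1-linked regions had at most 0.648% cover in any HSPC library, and LINE-1-linked near regions at most 0.741%.

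Far-region cover was 0.85 points lower in Tet2 KO than in WT HSPCs and 1.59 points higher with shMbd6 than with shNC, each with p = 0.1 in the exact permutation test, the smallest possible. Both directions turned after scaling to equal total covered length, to 4.52 points and -5.73 points. Near regions moved further. Near cover was 10.3%, 11.7% and 10.3% in WT, 2.55%, 2.80% and 2.80% in Tet2 KO and 17.5%, 19.2% and 18.8% in Tet2 KO HSPCs with shMbd6. The log2 ratio of far over near rose by 1.57 with Tet2 KO and fell by 2.06 with shMbd6, both with exact p = 0.1. With only single-copy far regions over all near regions the differences were 0.29 and -0.25. On the log2 scale single-copy near regions changed by -2.61 and 3.48, and single-copy far regions by -1.70 and 2.52.

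On the log2 scale, single-copy far regions changed more in HSPCs than the other repeated ones. Their cover was 2.48%, 2.37% and 2.10% in WT, 0.551%, 0.673% and 0.978% in Tet2 KO and 4.21%, 3.84% and 4.21% in Tet2 KO HSPCs with shMbd6. Other repeated regions had 14.2%, 16.1% and 14.7%, then 12.8%, 13.8% and 12.9%, then 15.0%, 16.5% and 15.9%. On the log2 scale single-copy far regions changed by -1.70 with Tet2 KO and 2.52 with shMbd6, close to the total covered length at -1.60 and 2.49.

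Only 146 far regions had a peak in at least 3 HSPC libraries and were tested with limma among 4456 regions. As in mES cells, a region with peaks in only 1 group of 3 libraries passes this filter through the group where it is high, so the counts are a description. In Tet2 KO against WT HSPCs, 11 were lower, beside 21% of all regions tested, and 4 were higher, beside 0.224%. In shMbd6 against shNC, 32 were higher, beside 61.4%, and 5 were lower, beside 0.18%. Scaling to equal total covered length gave 10 lower and 60 higher for Tet2 KO, and 60 lower and 11 higher for shMbd6. The shares of all regions called under scaling are not given here, so these counts do not compare far regions with the rest. Of the 32 called higher with shMbd6, 24 were single-copy, 7 other repeated and 1 LINE-1-linked. These were 52.2%, 7.53% and 14.3% of the far regions tested in each class, beside the 61.4% of all regions tested.

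The region near Six2 printed above had 0 bases covered in each WT and each Tet2 KO HSPC library and 711, 603 and 619 bases with shMbd6. The region entered the HSPC test only through the shMbd6 libraries, so its value there is a description. In mES cells the same region was covered at 1166, 1253 and 1253 bases in WT and 583, 726 and 567 bases in Tet2 KO cells with siNC, with an adjusted p of 0.0185 in limma.

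A single-copy region over ribosomal RNA sequence changed in both HSPC comparisons. At chr17:39847658-39848638, which overlaps the rRNA gene CT010467.1 and the lincRNA genes Gm42418 and AY036118, WT HSPCs had 877, 823 and 286 bases covered, Tet2 KO HSPCs 0 in each library, and shMbd6 978, 961 and 969. The adjusted p in limma was 0.0152 for Tet2 KO and 0.00128 for shMbd6. Ribosomal DNA is repeated many times in the mouse genome but largely missing from the assembly, so reads of other copies can map here. In siRNA-treated mES cells the region was covered at 920 to 981 bases in every library. At chr14:118437094-118438019, 170.6 kb from Gm9376, WT HSPCs had 311, 763 and 293 bases covered, Tet2 KO HSPCs 0 in each library and shMbd6 709, 730 and 677, with adjusted p of 0.0322 and 0.00237 in limma.

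The 3 far regions called higher in Tet2 KO HSPCs with the largest change were soft-masked over all of their bases. One of them, chr9:31767943-31768148, a run of TGCCTC units 145.4 kb from the TSS of Barx2, is printed on the forward strand in lower case, with no part marked, to show its makeup.
region on chromosome 9: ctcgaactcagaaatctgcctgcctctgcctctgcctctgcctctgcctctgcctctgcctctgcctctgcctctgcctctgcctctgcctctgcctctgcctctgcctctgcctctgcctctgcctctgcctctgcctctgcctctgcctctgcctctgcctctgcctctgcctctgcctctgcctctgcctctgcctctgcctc

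It had 0 bases covered in each WT HSPC library, 192, 200 and 186 in Tet2 KO HSPCs with shNC and 0 in each library with shMbd6, and so entered the test only through the group where it is high. Reads of such repeats cannot be placed with certainty, and the number of peaks on the fly spike-in chromosomes was also highest in Tet2 KO HSPCs with shNC, at 205 to 231, against 48 to 56 in WT and 85 to 95 with shMbd6. Its part in these values was not tested.

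The exact test over both experiments, with labels permuted within each, gave a summed log2 change of -2.49 for Tet2 KO against WT, with p = 0.005, the smallest it can give. The mES cell part of this sum leans toward loss, because the far regions were chosen in the WT mES line. The p therefore holds for regions chosen in this way and not for the mark over the genome. Under scaling to equal total covered length the sum was 1.22, with exact p = 0.025. The change was -2.08 in mES cells with siNC and -0.42 in HSPCs, and these differed by -1.66 with exact p = 0.1. For knockdown of Mbd6 in Tet2 KO cells the sum was 0.72 with exact p = 0.25, made of 0.0091 in mES cells and 0.71 in HSPCs, which differed by -0.70 with p = 0.255.

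At the ends of the range, 36 far regions had a peak in all 27 H2AK119ub libraries, and 85 had one in none of the 24 libraries outside the WT group that chose them. Of the 36, 30 were other repeated and 6 single-copy, none was LINE-1-linked, 10 held TTAGGG at least 3 times in a row and 21 had BAP1 in both libraries. At chr14:124801521-124802271, a telomere-type region 124.8 kb from Fgf14, at least 741 of 751 bases were covered in every library and all 751 by both BAP1 libraries. Of the 15 far regions with TTAGGG in a row, 14 had BAP1 in both libraries and the median number of H2AK119ub libraries with a peak was 27. A signal that is the same in both cell types, under both antibodies and in every treatment was seen at most of these telomere-type repeats, and whether it reflects the mark was not tested. At the other end, 6 far regions had a peak in all 3 untransfected WT libraries and in no other H2AK119ub library, among them chr1:193510139-193510528 over the lincRNA gene 4631405K08Rik.

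Far regions lay a median of 226.4 kb from the nearest protein-coding TSS, LINE-1-linked ones 337.0 kb and single-copy ones 178.5 kb. The farthest, chr14:91126013-91126235, was a LINE-1-linked region 2655 kb from the TSS of Pcdh20. They were spread over 1588 nearest genes. Developmental transcription factors were the nearest gene of 138 far regions (3.91%) and 2.50% of near regions, and of 5.46% of single-copy far regions. Cadherins and protocadherins, which are adhesion proteins encoded in gene-poor surroundings, were nearest to 97 (2.75%) and to 0.524% of near regions, and 54 of the 97 were LINE-1-linked. Genes of axon guidance and synaptic adhesion were nearest to 98 (2.78%) and to 0.936% of near regions, and pluripotency genes to 21 (0.595%) and to 0.178% of near regions. Olfactory receptors were nearest to 10 (0.284%) and to 0.477% of near regions, and vomeronasal receptors to 1 (0.0284%) and to 0.273%. Tbx3 stands in both the developmental and the pluripotency list. These lists were drawn up with earlier results known and are given as counts only.

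Among single genes, named after their counts were seen, Pcdh7 was nearest to 16 far regions, of which 12 were LINE-1-linked. Rybp, a subunit of variant PRC1, was nearest to 11 and Med13l to 9, all of them single-copy, and Tbx3, a T-box factor expressed in mES cells, to 10, of which 8 were single-copy. Other genes nearest to 10 or more far regions were Gm10330 (16), Gm21863 (15), Gm31371 and Ywhaq (14 each), Adgrl2 and G6pd2 (12 each) and Hrh1 (10). A lincRNA gene overlapped 406 far regions (11.5%) and 4.26% of near regions. A tRNA gene overlapped 3 far regions. By chromosome, LINE-1-linked regions made up 77.6% of the 147 far regions on X and 85.7% of the 21 on Y, against 20.4% of the 265 on chromosome 13 and 55.3% of the 206 on chromosome 3.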

How the data were processed

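H2AK119ub and BAP1 CUT&Tag libraries of mouse cells, with Drosophila chromatin added, were deposited as 1 broad-peak list per library. Per the labels and the study's methods, the authors trimmed reads (Trimmomatic 0.39), mapped them to mm10 with the fly genome (Bowtie2 2.4.1), removed duplicates (Picard) and called peaks per library (MACS2, broad cut-off 0.01). The deposited lists give for each peak a score, a fold enrichment and −log10 p and q values, and spike-in scaling does not act on them. Only peak positions entered the main results, and the deposited −log10 q entered 1 alternative (at least 5). Cover is the percent of bases under a peak.

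The far regions, gene lists and sequence classes were chosen with earlier results of these data known. Single values were compared by exact two-sided permutation tests over libraries (3 against 3), and regions by limma 3.58.1 (R 4.3.3) on covered kb with Benjamini-Hochberg adjustment, fitted to all libraries of an experiment. Scripts used Python 3.11.15, numpy 2.4.6, pandas 2.3.3, scipy 1.17.1 and BLASTN 2.17.0, and were tested on simulated data. Region coordinates are 1-based mm10 positions read from GRCm38.p6, whose 21 chromosomes are those of mm10, and RefSeq gave promoters and tRNA genes. Regions were named by rule, chromosome 18 left out: those beside each limit, those with peaks in the most libraries, those with the widest BAP1 cover, up to 3 called regions a direction with the largest change and no overlap between groups, the most CpG-rich, the farthest, and 1 for each large family. Alternatives changed the q limit, the distance (200 kb), the soft-masked share (under 50%), the filter on libraries, the scaling, the classes and the libraries used. Replicate numbers were not taken to pair the libraries. A few regions that the rule names are not reported here.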

Additional observations from a re-analysis of the deposited data

Results flagged for a closer look

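Fly spike-in chromosomes, which enter no comparison, carried more peaks in Tet2 KO HSPCs with shNC than in the other groups. The mean was 220.7 peaks (SD 13.8, n = 3), against 53 in WT HSPCs with shNC.

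The change of total covered length between Tet2 KO and WT mES cells differed between the untransfected and the siNC libraries. It was 0.15 on the log2 scale without siRNA and -2.12 with siNC, a difference of 2.27 (p = 0.025, exact permutation test with genotype labels permuted within each experiment, 3 libraries a group). Far-region cover moved by -0.24 and -2.08 in the same contrasts, and the first of these rests on the libraries that chose the regions.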

How the results depend on the processing

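Of 289 values under alternatives, over 17 results, 232 kept their direction and their side of the threshold or, for counts, stayed within 1.5 times, and causes were not tested for the others. The threshold was 0.05. Tests of 3 against 3 libraries cannot go below 0.1, so for them only the direction could change. Scaling to equal total covered length turned the difference in far-region cover to 0.90 points (Tet2 KO, siNC), -5.00 (siMbd6), 0.82 (siNsun2), 4.52 (Tet2 KO, HSPCs) and -5.73 (shMbd6), and the sums over both experiments to 1.22 for Tet2 KO and -2.02 for Mbd6, the latter with exact p = 0.005. The called share is taken over all far regions of a setting, tested or not, and was 44.4% for Tet2 KO with siNC in the main setting. The share over all regions tested is given for the main setting only. Scaling moved it from 0% to 0.0284% (siNsun2, 1 region), from 0.425% to 1.99% (Tet2 KO, HSPCs) and from 1.05% to 2.01% (shMbd6). A -log10 q of at least 5 gave -0.26 points for siMbd6 and called 10.9% (Tet2 KO, siNC), 0.113% (Tet2 KO, HSPCs) and 0.198% (shMbd6), with fewer regions tested. A distance of 200 kb gave -0.002 points (siMbd6) and 0.40 points (siNsun2) and called 0.556% (shMbd6). Far regions under 50% soft-masked gave -0.049 for far over near with Tet2 KO and siNC, 2.03 for the Mbd6 sum (exact p = 0.025) and 1.70% called (shMbd6). Single-copy far regions over all near regions gave -0.64, 0.032 and -0.015 (Tet2 KO with siNC, siMbd6, siNsun2). Single-copy far regions alone gave 2.91 for the Mbd6 sum (exact p = 0.025). Leaving out LINE-1-linked regions gave 0.94 for that sum (exact p = 0.025) and called 0.676% (Tet2 KO, HSPCs) and 1.62% (shMbd6). Without a filter on low values, 0.227% and 0.425% were called in the 2 HSPC comparisons. The classes and the removal of replicate 1 were chosen after seeing the data.

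Leaving out libraries, including every replicate 1 together, gave ranges of -4.16 to 3.83 points (siMbd6) and -4.24 to 4.04 points (siNsun2) in far-region cover. The range was -2.70 to -2.09 for the Tet2 KO sum. Without every replicate 1 that sum was -2.27, and its exact p rose to 0.0556, the smallest that the libraries left can give. The called share ran from 11.8% to 43.0% (Tet2 KO, siNC), 0.0284% to 0.624% (siMbd6), 0% to 0.255% (siNsun2), 0.255% to 0.482% (Tet2 KO, HSPCs) and 0.425% to 0.822% (shMbd6), and the lowest value in HSPCs for Tet2 KO, and 23 regions for shMbd6, came without Tet2 KO shNC replicate 1. Leaving out WT siNC replicate 1 left 710 regions lower and 38 higher with siNC, of 1482 far regions that still passed the filter.

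Replicate numbers were not taken to pair the libraries, since the labels give them no meaning and not every same-numbered pair deviated together. The correlations over regions ran from -0.018 to 0.30, and were 0.13, 0.26 and 0.30 for replicate 1 in the mES cell comparisons. A replicate block called 1586 far regions lower and 69 higher with siNC (46.9% in all) and moved no count by over 1.5 times. It gave p = 0.0312 for the Tet2 KO sum in an exact sign-flip test, the smallest that test can give. Pairs of single comparisons cannot go below 0.25 in it.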
